A study of Tupaia belangeri chinensis with 12 samples.

Results

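The cortical plate (CP) and the ventricular zone (VZ), the outer and the inner end of the fetal cortical wall, were compared in the Chinese tree shrew (Tupaia belangeri chinensis), a small mammal related to primates. The comparison takes the 3 libraries titled CP and the 3 titled VZ, 6 of the 12 libraries of the study. The other 6 come from the inner and the outer subventricular zone (ISVZ and OSVZ), which lie between the ends and are used here for the shared estimate of spread and for the position of the steps. All libraries are fetal cortex at embryonic day 37, and the labels name no genotype and no treatment. Each layer was cut out by laser from Nissl-stained frozen sections, and poly(A) RNA was sequenced. Whether the libraries come from separate fetuses, and how many sections or animals went into each, is not in the labels, so a p-value below measures only the spread of these samples, and part of that spread may be technical.

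The ventricular zone borders the ventricle. Its radial glia, the stem cells of the cortex, are joined to each other by adherens junctions and kept from differentiating by Notch signals from their daughters. Radial glia give rise to intermediate progenitors and to neurons, which stop dividing and climb along the radial fibres through the subventricular zones. In the cortical plate the neurons settle, extend axons and dendrites, and begin to form synapses. A dissected layer is a mixture of cells, so fewer cells of a type and less RNA per cell cannot be told apart in any value below.

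Levels are FPKM values, fragment counts that the authors' program corrects for transcript length and library depth, scaled once more between libraries and called scaled FPKM. Summed FPKM was 250086 to 276629 in the VZ libraries and 246686 to 266128 in the CP libraries, with 12924 to 13417 and 12157 to 12280 genes at 1 FPKM or more. Read depth is unknown from FPKM. The authors deposited bounds with each value. Over genes at 5 FPKM or more in every library of the study, their median half-width was 6.39% to 8.67% in VZ and CP libraries. It is given as a share of the value, and genes at lower levels were left out of it. These bounds cover the estimate within a library, not the spread between libraries. Across genes, Pearson's r averaged 0.961 between VZ libraries, 0.968 between CP libraries and 0.78 between a VZ and a CP library; genes are not independent replicates.

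VZ 1 and VZ 2 stand apart from the other libraries in markers of the choroid plexus, the tissue that secretes cerebrospinal fluid into the ventricle. The summed level of its 15 marker genes found was 665 in VZ 1, 2917 in VZ 2 and 176 in VZ 3, against 72.6, 45.4 and 79.8 in CP 1 to 3 and 66.5 to 101 in the ISVZ and OSVZ libraries. TTR, its main secreted protein, was at 529, 2514 and 33.8 in VZ 1 to 3 and at 0.744, 3.26 and 0.0217 in CP 1 to 3. Summed levels of 25 genes of motile cilia and ependyma, the ciliated lining of the ventricle, were 112, 211 and 139 in VZ and 61.4 to 70.9 in CP. FOXJ1, the regulator of motile cilia, was at 11.3, 43.4 and 20 in VZ and at 0.0128, 0.113 and 0.0132 in CP. The part that these cells have in the values below was not tested, and each count was also taken with VZ 1 and VZ 2 left out, where the lone VZ 3 is assumed to vary like the other layers.

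Marker genes of the labelled layers separated the 6 libraries in the direction of their labels. The radial glial transcription factor PAX6 was at 28.6, 21.1 and 36.0 in VZ 1 to 3 and at 0.353, 0.188 and 0.760 in CP 1 to 3. SOX2, a transcription factor of neural stem cells (TSDBGID.3394, chromosome 1, 1392649 to 1395155), was at 156, 158 and 156 in VZ and at 6.63, 6.68 and 3.92 in CP. NEUROD6, a transcription factor of cortical projection neurons, was at 142, 26.4 and 95.7 in VZ and at 665, 636 and 694 in CP. No VZ library overlapped a CP library for these 3 genes, while NEUROD6 was present in VZ at levels that differed between its libraries, lowest in VZ 2. The lowest VZ library was not the same for all neuronal genes. Summed markers of newborn and migrating neurons were 2907, 1964 and 1810 in VZ 1 to 3, and those of upper-layer neurons 317, 261 and 334.

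A limma model on log2(scaled FPKM + 1) called 7413 of 14101 tested genes (52.6%) different between CP and VZ at a Benjamini-Hochberg adjusted p under 0.05. Of these, 3365 (23.9% of those tested) were higher in CP and 4048 (28.7%) were lower. At least 2-fold on that scale were 1434 higher genes (10.2%) and 1949 lower genes (13.8%), and at least 4-fold were 354 and 660. CP and VZ libraries did not overlap for 8333 genes (59.1%), of which 1128 were not called. The genes called higher made up 18.7% to 20.2% of all scaled FPKM in the VZ libraries and 39.5% to 41.3% in the CP libraries. The genes called lower made up 29.7% to 32.8% in VZ and 13.2% to 13.8% in CP. The median difference over all genes was -0.063 on the log2 scale, and -0.123 with FPKM as deposited or 0.0262 after quantile normalisation. Without VZ 1 and VZ 2, 4924 genes were called, 2210 of them higher and 2714 lower. So many genes differ that the counts below are to be read against these shares.

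**Figure D1:**
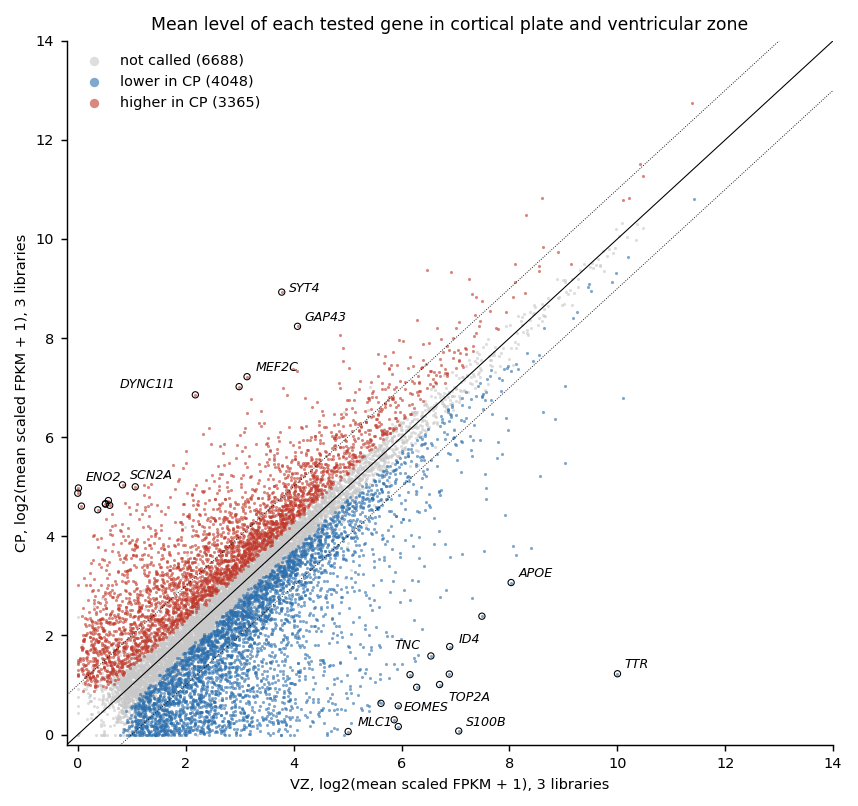
Mean level of each of the 14101 tested genes in VZ (horizontal) and CP (vertical), as log2(mean scaled FPKM + 1) over 3 libraries each. Colours mark the 3365 genes called higher in CP, the 4048 called lower and the 6688 not called, circles mark the 15 highest and the 15 lowest differences, and the dotted lines mark a 2-fold difference. The cloud is wide on both sides, with more genes far below the diagonal (660 at least 4-fold lower) than far above it (354).

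Progenitor genes lie at the lower end of this comparison. Of 36 genes of radial glia, 34 passed the filter, of which 29 were lower in CP, 2 higher and 3 not called, with a median log2 difference of -2.30; 27 were lower without VZ 1 and VZ 2. ID4, an inhibitor of differentiation factors, was at 106, 126 and 122 in VZ and at 1.92, 3.76 and 1.61 in CP, a fall of 5.16 ± 0.20 (SE, n = 3 per layer) with a limma adjusted p of 3.3e-08. VIM, the intermediate filament of radial glia, fell by 4.49 ± 0.22, from 232, 293 and 310 to 12.8, 12.1 and 9.34. SOX2 fell by 4.58 ± 0.22 (limma adjusted p = 7.6e-08), through means of 106 in ISVZ and 42.2 in OSVZ. For these 3 genes the highest CP library lay far below the lowest VZ library. TRNP1, a nuclear protein that affects radial glial division, rose by 1.34 ± 0.36 (adjusted p = 0.009, and 0.0539 without VZ 1 and VZ 2), from 1.59, 2.94 and 1.69 to 6.56, 6.61 and 6.74. ID2, the other member called higher, was at 20.8, 10.9 and 13.8 in VZ and at 35.6, 20.1 and 43.3 in CP, with overlapping libraries. Its adjusted p of 0.023 went to 0.0888 without VZ 2, 0.0610 without VZ 3, 0.0687 without CP 1 and 0.0896 without CP 3.

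Outer radial glia are stem cells that have left the ventricular surface, and in other mammals their markers are used for the outer subventricular zone. Of 15 tested markers 12 were lower in CP, 2 higher and 1 not called, with a median of -1.95. TNC, an extracellular glycoprotein, was at 74.9, 82.6 and 120 in VZ and at 2.07, 2.49 and 1.46 in CP, a fall of 4.94 ± 0.23 (limma adjusted p = 7.6e-08). MOXD1, a monooxygenase relative, fell by 4.53 ± 0.28, ACSBG1, a fatty acid activating enzyme, by 3.81 ± 0.21, and ITGB5, an integrin subunit, by 3.12 ± 0.23. HOPX, a homeodomain protein, was at 3.23, 3.83 and 3.53 in VZ and at 0, 0.243 and 0.302 in CP (-1.95 ± 0.28, adjusted p = 0.00015). These 5 genes were at their highest mean in VZ among the 4 layers, with OSVZ means of 23.4, 9.42, 5.84, 1.77 and 0.796. The 2 higher members, SDC3 (0.70) and IL6ST (0.34), a cell surface proteoglycan and a cytokine receptor subunit, both lost the call with VZ 1 (adjusted p = 0.0607 and 0.134), VZ 2 (0.0583 and 0.0959) or CP 3 (0.0728 and 0.132) left out, and IL6ST also with CP 1 left out (0.102) or with FPKM as deposited (0.149).

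Junctions and polarity proteins hold the radial glial endfeet together at the ventricle. Of 27 tested genes 19 were lower in CP, 4 higher and 4 not called, with a median of -1.66. CRB1, an apical polarity protein, was at 22.3, 25.3 and 20.1 in VZ and at 0.194, 0.151 and 0.200 in CP (-4.31 ± 0.27, limma adjusted p = 3.2e-07). GJA1, the gap junction protein connexin 43, fell by 4.27 ± 0.37, from 78.0, 98.7 and 70.3 to 3.88, 4.30 and 2.04. CTNNA1, the epithelial alpha-catenin that ties cadherins to actin, was at 58.0, 70.4 and 83.6 in VZ and at 6.99, 4.97 and 4.73 in CP (-3.45 ± 0.18). CTNNA2, the neuronal alpha-catenin, went the other way, from 34.8, 29.9 and 26.7 to 58.0, 55.4 and 53.0 (0.85 ± 0.14, adjusted p = 0.00036). The cadherin and the catenin that they work with were not called, CDH2 at -0.18 (adjusted p = 0.50) and CTNNB1 at -0.21 (0.33). FAT4, a giant cadherin of planar polarity, rose from 2.10, 2.89 and 5.22 to 20.7, 15.2 and 35.5 (2.47 ± 0.36, adjusted p = 0.00014), while CELSR1, another cadherin of planar polarity, fell by 2.87 ± 0.28. MARCKSL1, an actin-binding protein, rose by 0.63 ± 0.12. PARD6G, a polarity scaffold, was called at 0.49, and its adjusted p of 0.016 went to 0.0605 without VZ 1, 0.0525 without VZ 2 and 0.0647 without CP 3.

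Genes of intermediate progenitors and of the neurogenic programme were lower in CP for 15 of 19 tested members and higher for 0, with a median of -3.30. EOMES, the transcription factor that marks intermediate progenitors (TSDBGID.18855, chromosome 29, 15848104 to 15861221), was at 66.8, 41.9 and 63.1 in VZ and at 0.185, 0.139 and 0.371 in CP (-5.54 ± 0.28, limma adjusted p = 1.1e-07). Its means of 54.4 in ISVZ and 44.1 in OSVZ were close to those of VZ, so nearly the whole fall lies between OSVZ and CP. NEUROD4 and NEUROG1, proneural factors, had log2 differences of -5.67 ± 0.38 and -4.54 ± 0.41, and both were at 0 in at least 1 CP library. PENK, an opioid peptide precursor, fell by 4.66 ± 0.99 (adjusted p = 0.0021), but VZ 3 at 32.2 was well under VZ 1 and VZ 2 at 89.1 and 103, and without those 2 libraries the adjusted p was 0.0836. ELAVL2, an RNA-binding protein of neurons, was not called (-0.22, adjusted p = 0.38). With CP 1 left out or after quantile normalisation, 1 member was called higher.

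Nearly all tested genes of the cell cycle were lower in CP. Of 36 tested genes of DNA replication 35 were lower in CP and 0 higher, with a median of -1.93, and of 37 tested genes of mitosis 36 were lower and 0 higher, with a median of -3.26. TOP2A, which untangles replicated chromosomes (TSDBGID.9847 on chromosome 16, 66577202 to 66611869), was at 105, 94.4 and 111 in VZ and at 1.73, 0.570 and 0.742 in CP (-5.74 ± 0.27, limma adjusted p = 7.6e-08). CCNB2, a mitotic cyclin, AURKB, a mitotic kinase, and MKI67, a protein of dividing cells, fell by 4.84 ± 0.23, 4.78 ± 0.25 and 4.69 ± 0.28. Among replication genes, MCM3 and MCM6, subunits of the replicative helicase, fell by 4.45 ± 0.23 and 3.41 ± 0.22, and TYMS and RRM2, enzymes of nucleotide synthesis, by 4.05 ± 0.23 and 3.65 ± 0.24. CKS2 and CDCA3, cell cycle regulators that are in neither list, were among the 15 largest falls, at 5.12 ± 0.24 and 5.38 ± 0.29, together with UBE2Cli1 (5.66 ± 0.26) and NUSAP1li3 (5.00 ± 0.20), which the annotation names as copies of a ubiquitin-conjugating enzyme and of a spindle protein. RFC2, a clamp loader subunit, and MAD2L1, a spindle checkpoint protein, were not called, at -0.09 and -0.03, and MAD2L1 was under 1 scaled FPKM in all 6 libraries. A further 11 mitosis genes, among them CCNB1, UBE2C, NUSAP1 and ASPM, lie below the filter under their own symbol, while 12 annotated copies of list members were tested and all 12 were lower. Reads of near-identical copies could have been divided between entries, so levels of single members of such families are uncertain.

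Regulators of cell cycle exit went both ways. Of 17 tested genes 10 were lower in CP, 4 higher and 3 not called, with a median of -1.10. CCND2, the D cyclin of cortical progenitors, was at 66.6, 74.0 and 80.7 in VZ and at 4.32, 4.42 and 3.13 in CP (-3.92 ± 0.22, limma adjusted p = 1.7e-07), CCND1 fell by 2.14 ± 0.17 and CDK6, their kinase, by 2.54 ± 0.18. Of their inhibitors, CDKN2C fell by 3.95 ± 0.16, from 20.4, 24.7 and 26.9 to 0.645, 0.464 and 0.723, and CDKN2D rose by 1.27 ± 0.23, from 16.2, 15.2 and 12.8 to 31.5, 35.6 and 44.0. CDKN1C, another inhibitor, was not called (0.10). CDK5, a kinase active in postmitotic neurons, and CDK5R1, its activator p35, rose by 0.65 ± 0.14 and 1.27 ± 0.13, and CDK5R1 was at 60.2, 44.9 and 53.0 in VZ and at 119, 129 and 137 in CP. CCND3, the other D cyclin, was called higher by 0.56 ± 0.14 (adjusted p = 0.0069) at a level of 1.92 to 2.66 in VZ and 3.60 to 3.99 in CP, and lost the call without VZ 1 and VZ 2 (0.176).

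Most genes of the Notch pathway were lower in CP, while the ligands JAG2 and DNER were higher. Of 28 tested genes 20 were lower in CP, 4 higher and 4 not called, with a median of -1.12. NOTCH1, the receptor (TSDBGID.13219, chromosome 2, 94618166 to 94656542), was at 19.7, 19.2 and 24.8 in VZ and at 0.623, 0.28 and 0.234 in CP (-4.01 ± 0.19, limma adjusted p = 7.7e-08), and NOTCH2 fell by 3.39 ± 0.19. MFNG and LFNG, the fringe enzymes that tune ligand binding, fell by 4.08 ± 0.17 and 3.51 ± 0.27. HES1 and HES5, transcriptional targets of Notch that were named after their values were seen, fell by 3.25 ± 0.27 and 3.01 ± 0.27, HES5 from 13.9, 17.3 and 17.2 to 1.5, 1.28 and 0.669. The ligands JAG2 and DNER rose by 1.35 ± 0.16 and 1.38 ± 0.28. JAG2 was at 2.62, 2.04 and 3.15 in VZ and at 8.43, 7.63 and 8.28 in CP. DNER, a neuronal ligand, was at 36.0, 43.5 and 48.5 in VZ and at 73.1, 112 and 170 in CP. DTX1 and DTX4, intracellular regulators of the receptor, rose by 0.78 ± 0.14 and 0.97 ± 0.24, and DTX4 had an adjusted p of 0.0631 without VZ 1 and VZ 2. MAML1, a coactivator, was not called (-0.39, adjusted p = 0.057), and was called with the replicate number as a block (0.0124).

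Genes of other morphogen pathways were lower in CP more often than higher. Of 23 tested Wnt genes 12 were lower and 2 higher (median -0.54), and of 33 tested genes of FGF, Sonic hedgehog, BMP and retinoid signalling 20 were lower and 4 higher (median -1.34). FZD2 and FZD8, Wnt receptors, fell by 4.09 ± 0.13 and 2.60 ± 0.20. SFRP1, a secreted Wnt antagonist, was at 244, 241 and 237 in VZ and at 15.7, 15.1 and 31.2 in CP (-3.56 ± 0.26, limma adjusted p = 1.0e-06). TCF7L2, a transcription factor of the pathway, fell by 2.07 ± 0.28, and CTNNB1, its transducer, was not called (-0.21). FGFR2 and FGFR3, FGF receptors, fell by 3.79 ± 0.14 and 4.10 ± 0.34, GAS1, a hedgehog co-receptor, by 4.07 ± 0.30 and GLI3, the hedgehog-responsive repressor, by 3.58 ± 0.26, from 11.4, 9.73 and 15.5 to 0.0731, 0.0857 and 0.0981. ETV1, a transcription factor downstream of FGF, was not called (-0.27, adjusted p = 0.54). FGF12, an intracellular FGF that binds sodium channels, rose from 2.98, 2.88 and 2.80 to 33.5, 21.6 and 17.7 (2.65 ± 0.30, adjusted p = 2.4e-05). The secreted factors FGF9 (1.90) and WNT7B (1.35) were called higher, and lost the call without VZ 1 and VZ 2, at adjusted p of 0.0654 and 0.0701. WNT4 (0.98) lost it without those libraries (0.0983) or without CP 3 (0.0563). RARB, a retinoic acid receptor (0.90, adjusted p = 0.044), lost it with each of the libraries but CP 3 left out (0.0774 to 0.159) and with the replicate number as a block (0.0586). Without VZ 1 and VZ 2, 0 Wnt genes and 1 gene of the other 4 pathways were higher.

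Extracellular matrix and integrin genes, which form the niche of radial glia, were lower in CP for 31 of 45 tested members, higher for 5 and not called for 9 (median -1.19). With VZ 2 left out 3 were higher, and without VZ 1 and VZ 2 1 was higher and 23 lower. SDC2, a heparan sulphate proteoglycan, was at 34.7, 35.5 and 40.0 in VZ and at 1.59, 1.73 and 1.17 in CP (-3.92 ± 0.21, limma adjusted p = 1.4e-07). BCAN, a chondroitin sulphate proteoglycan of brain matrix, fell by 3.61 ± 0.35. The members called higher were SULF2, which trims sulphate from proteoglycans (1.63), TNR, a matrix glycoprotein of neurons and oligodendrocytes (1.44), SDC3 (0.70), FBLN1, a matrix glycoprotein (0.51), and GPC2, a proteoglycan of growing axons (0.43). None of these 5 calls held without VZ 1 and VZ 2, apart from GPC2, whose CP and VZ libraries overlapped and whose adjusted p of 0.047 went to 0.138 without VZ 2, 0.175 without VZ 3, 0.0715 without CP 1 and 0.162 without CP 2. CSPG5, a proteoglycan shared by progenitors and neurons, was not called (-0.08).

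**Figure D2:**
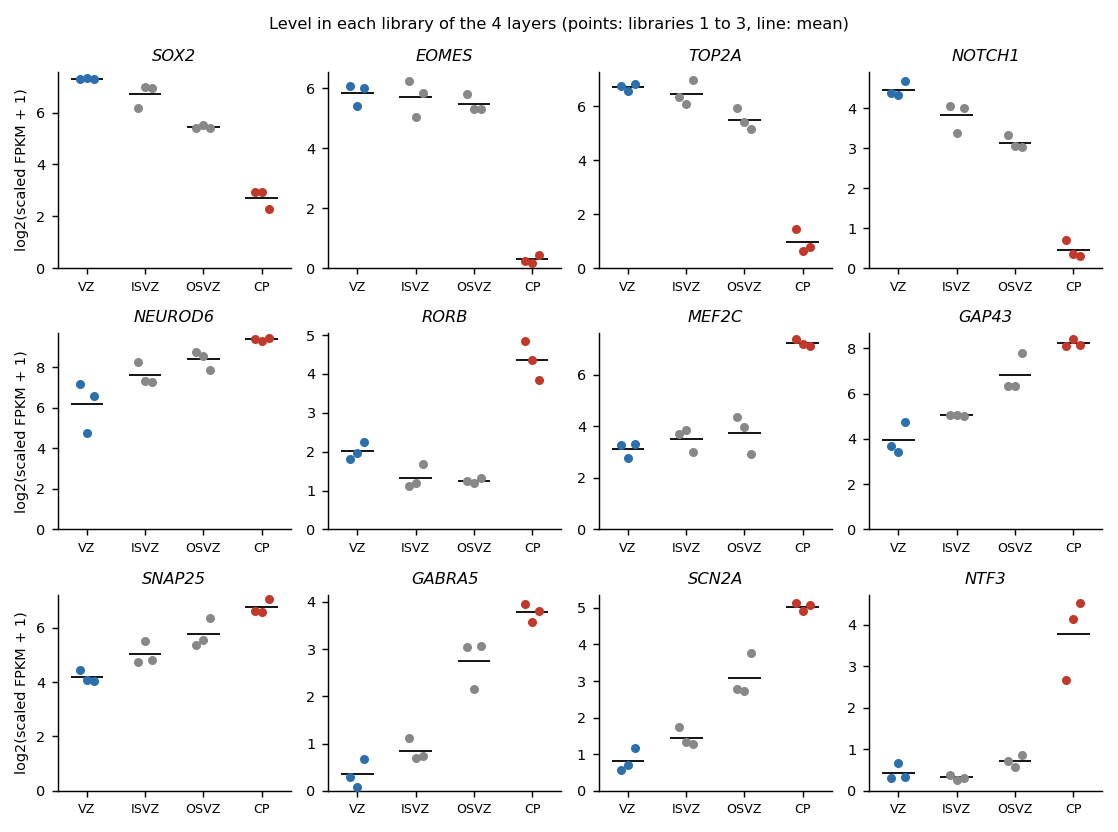
Level of 12 genes in each of the 12 libraries, as log2(scaled FPKM + 1) on the vertical axis, by layer from VZ to CP on the horizontal axis; points are libraries and lines their mean. SOX2, EOMES, TOP2A and NOTCH1 are lowest in CP, the other 8 genes are highest there, and MEF2C stays near 10 scaled FPKM through OSVZ (13.5) before it reaches 138 to 164 in CP.

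Markers of young neurons were higher in CP more often than lower. Of 21 tested markers of newborn or migrating neurons 12 were higher in CP, 2 lower and 7 not called, with a median of 0.92. NEUROD6 and BHLHE22, transcription factors of projection neurons, rose by 3.20 ± 0.50 and 3.48 ± 0.44, and NEUROD2, a further member of that family, by 2.15 ± 0.44 (limma adjusted p = 0.00025, 5.0e-05 and 0.0015). VZ 2 was the lowest of the 6 libraries for all 3 genes, and BHLHE22 was at 21.1, 6.55 and 17.0 in VZ and at 113, 180 and 201 in CP. NEUROD2 and SLA, an adaptor protein of migrating neurons that rose by 2.14 ± 0.45, had their highest means in OSVZ, at 91.7 and 32.6. Their OSVZ libraries (64.0 to 110 and 29.8 to 36.5) overlapped those of CP (66.0 to 83.5 and 17.9 to 34.8). SOX11, a transcription factor of young neurons, was at 154, 120 and 124 in VZ and at 110, 103 and 128 in CP and was not called (-0.22). DCX, the microtubule protein of migrating neurons, which was named after its values were seen, was at 217, 164 and 140 in VZ and at 325, 324 and 323 in CP (0.92 ± 0.21). ST18, a zinc finger factor, fell by 1.94 ± 0.34, and RND3, a small GTPase of migration, by 1.32 ± 0.34, with an adjusted p of 0.168 for RND3 without VZ 1 and VZ 2.

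Genes of upper-layer neurons were higher in CP for 11 of 20 tested members, lower for 3 and not called for 6, with a median of 1.13; 7 were higher without VZ 1 and VZ 2. MEF2C, a factor of maturing neurons (TSDBGID.6173, chromosome 11, 86004952 to 86196714), was at 8.70, 5.81 and 8.88 in VZ, at a mean of 13.5 in OSVZ and at 164, 142 and 138 in CP (4.10 ± 0.33, limma adjusted p = 1.7e-06). RORB, a nuclear receptor of layer 4 neurons, was at 2.53, 2.94 and 3.79 in VZ, also low in OSVZ (mean 1.39) and at 28.0, 19.4 and 13.3 in CP (2.33 ± 0.24). RASGRF2, a calcium-activated exchange factor, rose by 2.00 ± 0.24. LHX2 and POU3F3, factors that progenitors also use, fell by 1.04 ± 0.29 and 0.81 ± 0.20. The adjusted p of KITLG, a secreted ligand (-0.98), went from 0.028 to 0.0635 with VZ 1, 0.112 with VZ 2, 0.0832 with CP 1 and 0.075 with CP 3 left out. CUX1 and CUX2, further upper-layer factors that were named after their values were seen, were not called, at 0.11 and 0.53. HPCA, a calcium sensor, was not called either (0.61), with its highest mean in OSVZ (68.7).

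Genes of deep-layer and subplate neurons were called less evenly: 9 of 25 tested members were higher in CP, 3 lower and 13 not called, with a median of 0.61, and 5 were higher without VZ 1 and VZ 2. TSHZ3 and LMO3, transcriptional regulators, rose by 2.32 ± 0.20 and 2.02 ± 0.24, LMO3 from 19.5, 16 and 15 to 61.9, 65.4 and 87.8. TBR1, the factor of corticothalamic neurons, was at 11.1, 3.43 and 7.18 in VZ and at 24.4, 19.2 and 37.1 in CP (1.83 ± 0.31, limma adjusted p = 0.00046), with a mean of 27.3 in OSVZ. It overlaps PSMD14, at a mean of 39.5 over the 12 libraries. BCL11B, the factor of subcerebral neurons, was at 14.8, 14.1 and 15.6 in VZ and at 9.96, 8.54 and 14 in CP; the libraries did not overlap, but it was not called (-0.45, adjusted p = 0.25). With the replicate number as a block in the 6 CP and VZ libraries alone it was called lower (0.0333). CCN2, a matrix-associated growth factor used as a subplate marker, fell by 1.89 ± 0.33. SULF1 (-1.56) and FOXP2 (-1.40), a sulphatase and a forkhead factor, were called lower, but of the 3 only CCN2 kept the call with VZ 2 (adjusted p = 0.0734 for SULF1 and 0.0607 for FOXP2), CP 2 (0.0581 and 0.1) or CP 3 (0.0539 and 0.0859) left out, and FOXP2 lost it without VZ 1 too (0.0706).

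Reelin, made by Cajal-Retzius cells at the surface of the plate, stops migrating neurons through a receptor and adaptor pathway. Of 10 tested genes of these cells and this pathway 4 were higher, 2 lower and 4 not called. DAB1, the adaptor inside neurons, was at 5.94, 7.10 and 9.83 in VZ and at 35.1, 38.8 and 56.2 in CP (2.36 ± 0.25, limma adjusted p = 1.5e-05). RELN, the secreted signal, was at 0.659, 1.15 and 2.40 in VZ, 7.14, 9.72 and 3.19 in CP and 2.90, 3.99 and 27.4 in OSVZ, where OSVZ 3 stood apart. Its difference of 1.64 ± 0.63 passed narrowly (adjusted p = 0.047). It did not pass with the replicate number as a block (0.0578) or with VZ 1 (0.134), VZ 2 (0.103), CP 1 (0.110) or CP 2 (0.149) left out. CRKL, an adaptor downstream of DAB1, fell by 0.84 ± 0.09, from 34.5, 34.9 and 34.9 to 19.4, 17.7 and 19.8. FYN, the kinase that acts on DAB1, was not called (0.29, adjusted p = 0.18). CXCR4, a chemokine receptor of Cajal-Retzius cells and interneurons, fell by 1.68 ± 0.49, with an adjusted p of 0.014, and of 0.230 without VZ 1 and VZ 2. TP73, LHX1, LHX5, EBF3 and NDNF, which mark Cajal-Retzius cells, were below the filter.

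Most growth cone and microtubule genes rose: 34 of 39 tested members were higher in CP, 2 lower and 3 not called, with a median of 1.34, and 29 were higher without VZ 1 and VZ 2. DYNC1I1, an intermediate chain of the dynein motor found in neurons (TSDBGID.22849, chromosome 6, 100964038 to 101338314), was at 3.02, 2.40 and 5.17 in VZ and at 107, 106 and 131 in CP (4.72 ± 0.20, limma adjusted p = 5.0e-08). GAP43, a growth cone protein, rose from 11.7, 9.69 and 26.1 to 278, 341 and 283 (4.28 ± 0.39) and was at 80.5, 80 and 223 in OSVZ. MAPT, the axonal protein tau, was at 27.2, 24.1 and 32.3 in VZ and at 262, 269 and 264 in CP (3.21 ± 0.23), and NEFM, a neurofilament, rose by 3.04 ± 0.28. TUBB3 and STMN2, a neuronal tubulin and a microtubule regulator that were named after their values were seen, were among the most abundant members, STMN2 at 507, 365 and 294 in VZ and at 1865, 1939 and 1624 in CP (2.25 ± 0.21). MARCKS, an actin-linked membrane protein, was called lower (-0.72), but not without VZ 1 and VZ 2 (adjusted p = 0.315). DPYSL4, a relative of the collapsin mediators (-0.72, adjusted p = 0.032), lost its call with VZ 2 (0.0817), VZ 3 (0.0830), CP 1 (0.0545) or CP 3 (0.112) left out. TUBA1A, TUBB2B, NEFL and NEFH were below the filter in this annotation.

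The machinery of transmitter release was higher in CP for 35 of 38 tested members, all 35 at least 2-fold, and lower for 1, with a median of 1.75; 31 were higher without VZ 1 and VZ 2. SYT4, a vesicle protein of the synaptotagmin family (TSDBGID.7387, chromosome 13, 33755525 to 33766679), had the highest log2 difference of all named genes, 5.74 ± 0.66 (limma adjusted p = 2.5e-05), from 5.00, 2.13 and 31.1 in VZ to 541, 667 and 251 in CP. VZ 3 and CP 3 were the closest of its libraries. SH3GL2, an endophilin of vesicle recycling, rose by 3.81 ± 0.20, from 3.37, 3.18 and 6.68 to 79.0, 65.1 and 71.7. RAB3B, a vesicle GTPase, rose by 3.09 ± 0.38 from under 0.5 in all VZ libraries, and STX1A, the membrane SNARE, by 2.75 ± 0.22. SNAP25, its SNARE partner, which was named after its values were seen, was at 20.8, 16.1 and 15.7 in VZ and at 98.4, 95.5 and 134 in CP. UNC13B, a priming factor, was called lower (-0.84), but not without VZ 1 and VZ 2 (0.171), and BSN, an active zone scaffold, was not called (0.38), but was called with the replicate number as a block (0.0282).

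Most genes of glutamate receptors were higher in CP. Of 33 tested genes of glutamate receptors and the postsynapse 24 were higher in CP, 0 lower and 9 not called, with a median of 1.31. GRM5, a metabotropic receptor, was at 1.02, 0.608 and 1.26 in VZ and at 20, 19.2 and 23.1 in CP (3.48 ± 0.29, limma adjusted p = 2.4e-06), and GRM7, another, rose by 2.95 ± 0.30. SLC17A7, the vesicular glutamate transporter, rose by 3.30 ± 0.58, and its CP values of 37.0, 19.9 and 13.8 spread more than those of GRM5. DLG2, a postsynaptic scaffold, rose by 2.57 ± 0.18. The AMPA receptor genes differed from each other: GRIA1 was at 76.4, 69.2 and 80.7 in VZ and at 81.1, 98.0 and 91.4 in CP and was not called (0.25, adjusted p = 0.28). GRIA2, named after its values were seen, rose from 9.67, 5.47 and 8.37 to 33.8, 43.4 and 47.1 (2.28 ± 0.22). The kainate receptor genes GRIK2, GRIK3, GRIK4 and GRIK5, named after their values were seen, were not called, at 0.17, -0.18, -0.29 and -0.13.

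Among 19 tested genes of GABA and glycine receptors and chloride transport 13 were higher in CP, 2 lower and 4 not called (median 1.07). GABRA5, a subunit of GABA receptors (TSDBGID.16060, chromosome 23, 29838149 to 29889288), was at 0.232, 0.0521 and 0.588 in VZ, at a mean of 6.03 in OSVZ and at 14.6, 10.9 and 12.9 in CP (3.43 ± 0.25, limma adjusted p = 8.4e-07). GLRA2, a fetal glycine receptor subunit, rose by 3.51 ± 0.24. GABRA2 went against them, at 20.6, 21.6 and 17.2 in VZ and 11, 13.3 and 6.45 in CP (-0.93 ± 0.23, adjusted p = 0.0052, and 0.126 without VZ 1 and VZ 2). The chloride importer SLC12A2 fell by 1.20 ± 0.23, from 6.56, 10.5 and 6.73 to 3.80, 1.97 and 2.87. The exporter SLC12A5 rose by 1.79 ± 0.44, from 1.09, 0.766 and 0.928 to 7.02, 5.12 and 5.05 (adjusted p = 0.0051, and 0.0689 without VZ 1 and VZ 2).

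Voltage-gated channels were higher in CP for 33 of 44 tested members, lower for 1 and not called for 10, with a median of 1.16. SCN2A, a sodium channel of developing axons (TSDBGID.3870, chromosome 1, 146719607 to 146875708), was at 0.478, 0.616 and 1.24 in VZ and at 34.2, 28.9 and 32.6 in CP (4.23 ± 0.26, limma adjusted p = 3.0e-07). SCN3B, an accessory subunit, rose by 2.93 ± 0.22, KCNMA1, a calcium-activated potassium channel, by 3.29 ± 0.25, and KCNV1, a silent potassium channel subunit, by 2.84 ± 0.16, from under 0.4 in all VZ libraries to 7.27 to 8.78. KCND3, a potassium channel, was called lower (-0.59), but not without VZ 1 and VZ 2 (adjusted p = 0.395) or after quantile normalisation (0.0622). KCNIP4, its interacting protein, was not called (0.92), with overlapping libraries. It was called with CP 3 left out (0.0373) and with the replicate number as a block in the 6 CP and VZ libraries alone (0.0371). Calcium sensors and kinases were higher for 22 of 29 tested members and lower for 2 (median 1.27). CAMK2B, the kinase subunit of dendrites, was at 3.94, 3.05 and 8.64 in VZ and at 66.1, 53.4 and 47.3 in CP (3.28 ± 0.30), CAMKV, a kinase relative, rose by 3.16 ± 0.23 and HPCAL4, a sensor of the hippocalcin family, by 3.34 ± 0.36. NRGN, a calmodulin-binding protein of dendrites, was at 0, 1.87 and 0.608 in VZ and 12.6, 48.3 and 12.8 in CP (3.65 ± 0.64), with CP 2 far above the others. ATP2B4, a calcium pump, fell by 2.12 ± 0.21, and HPCAL1 (-0.997) lost its call without VZ 1 and VZ 2 (0.1).

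Adhesion molecules and synapse organizers were higher in CP for 40 of 55 tested members and lower for 2 (median 1.30), and 26 were higher without VZ 1 and VZ 2. CDH12, a cadherin of neurons, was at 0.0299, 0.0223 and 0.606 in VZ and at 15.8, 13.1 and 16.6 in CP (3.76 ± 0.18, limma adjusted p = 7.6e-08). LRFN5, a synaptic adhesion protein, rose from 1.42, 0.446 and 2.19 to 26.7, 31.5 and 37.2 (3.86 ± 0.28), CNTN1, an axonal contactin, by 2.80 ± 0.33 and CDH8, another cadherin, by 2.79 ± 0.56. The members that fell were CDH4, by 1.03 ± 0.23, and IGSF8, an immunoglobulin protein that binds tetraspanins, by 0.73 ± 0.18. Guidance genes did not move together: of 47 tested members 20 were higher, 12 lower and 15 not called (median 0.47), and the higher count was 13 without VZ 2 and 8 without VZ 1 and VZ 2. EFNA3, an ephrin ligand, rose from 1.5, 0.878 and 3.09 to 14.3, 14.6 and 14.8 (2.54 ± 0.28), and SEMA3C, a secreted semaphorin, by 2.17 ± 0.49, with CP 3 at 58.3 above the 18.2 and 16.9 of CP 1 and CP 2. PLXNB1, a semaphorin receptor, fell by 2.54 ± 0.20 and SEMA5A, a transmembrane semaphorin, by 2.38 ± 0.16, from 7.53, 6.99 and 9.46 to 0.613, 0.655 and 0.901. EPHA5, an ephrin receptor, was not called (-0.03), with overlapping libraries.

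Neurotrophins, neuropeptides and their receptors were higher in CP for 22 of 40 tested members and lower for 4, with a median of 1.26, and for 15 and 2 without VZ 1 and VZ 2. NTF3, neurotrophin 3 (TSDBGID.24087, chromosome 7, 35343008 to 35430268), was at 0.237, 0.579 and 0.248 in VZ, at a mean of 0.650 in OSVZ and at 5.35, 16.6 and 21.8 in CP (3.34 ± 0.36, limma adjusted p = 1.6e-05). BDNF, the related factor, and NTRK3, the receptor of NTF3, which were named after their values were seen, rose by 2.50 ± 0.23 and 1.35 ± 0.32, and BDNF was at 0.0916, 0 and 0.342 in VZ and at 7.50, 4.55 and 4.65 in CP. NTRK2, the receptor of BDNF, also named after its values were seen, was not called (-0.57, adjusted p = 0.18), at 27.9, 59.6 and 46.6 in VZ and 34.0, 28.4 and 24.1 in CP. SCG2 and SCG5, secretory granule proteins, rose by 3.77 ± 0.82 and 3.13 ± 0.25, and CCK, a peptide precursor, by 3.58 ± 0.84. SCG2 was at 15.3 to 27.7 in CP, and at 5.34, 4.11 and 91.4 in OSVZ, where OSVZ 3 stood far above the others. SCG3 was not called (0.28). EGFR, the growth factor receptor of progenitors, fell from 3.51, 4.89 and 3.28 to 0.483, 0.210 and 0.443 (-1.82 ± 0.21). IGF1R (-0.56), ADCYAP1R1 (-0.74) and NGFR (-0.92), the other receptors called lower, each lost the call with CP 2 left out, at an adjusted p of 0.0564, 0.0666 and 0.0561, so that only EGFR was then lower. The call of IGF1R was also lost without VZ 3 (0.0573), that of ADCYAP1R1 without VZ 2 (0.0538), and that of NGFR without VZ 1 (0.0705) or CP 3 (0.0536).

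**Figure D3:**
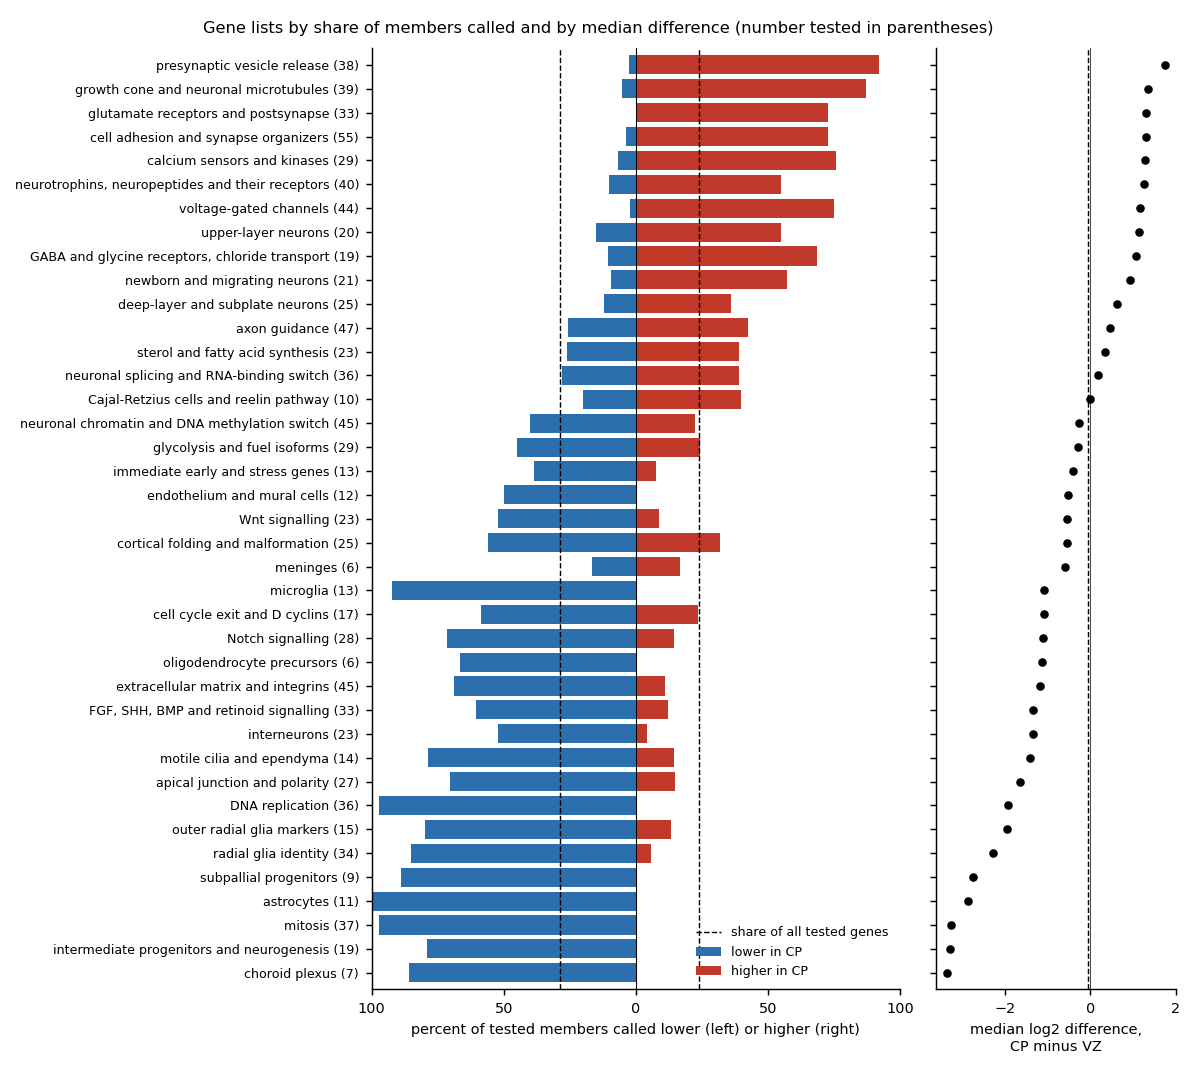
Left, share of the tested members of each gene list (lists with 5 or more tested members) that were called lower or higher in CP, in percent, with dashed lines at the shares over all tested genes (28.7% lower and 23.9% higher). Right, the median log2 difference of the tested members, with a dashed line at -0.063, the median over all genes. Lists of progenitors, the cell cycle and non-neuronal cells lie on the lower side and lists of synapses, channels and adhesion on the higher side.

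Of 45 tested chromatin regulators 10 were higher in CP, 18 lower and 17 not called, with a median of -0.27. Their share called was 62.2%, against 52.6% of all tested genes. The higher count was 6 with FPKM as deposited. Of 12 tested annotated copies of other list members, 1 was higher and 9 lower. Subunits of chromatin regulators are known to be exchanged when progenitors become neurons. DPF1, a BAF subunit of neurons, rose from 9.66, 9.83 and 13.0 to 56.9, 54.7 and 46.3 (2.19 ± 0.17, limma adjusted p = 1.7e-06), and CHD5, a neuronal remodeller, from 2.21, 1.03 and 2.17 to 12.9, 12 and 10.6 (2.22 ± 0.28). SMARCD1, a BAF subunit, fell by 2.15 ± 0.30, CHD7, a remodeller of progenitors, by 2.32 ± 0.13, and UHRF1, which copies DNA methylation after replication, by 3.64 ± 0.21. HDAC2, a histone deacetylase, was not called (0.24). Splicing and RNA-binding factors were higher for 14 of 36 tested members and lower for 10 (median 0.18). Of 17 tested annotated copies of other list members, 1 was higher and 8 lower. KHDRBS2, a splicing factor of neurons, rose from 1.04, 1.05 and 1.80 to 17.4, 14 and 31.0 (3.19 ± 0.32), while QKI, MSI2 and PTBP1, RNA-binding proteins of progenitors, fell by 2.54 ± 0.17, 2.2 ± 0.12 and 2.10 ± 0.18. PTBP1, the repressor of neuronal exons, was at 28.1, 32.5 and 37.8 in VZ and at 6.31, 6.31 and 8.03 in CP. PTBP2, the neuronal paralogue, was at 57.6, 51.0 and 48.3 in VZ and at 63.4, 60.7 and 66.7 in CP and was not called (0.28, adjusted p = 0.13).

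Partners within a complex or family, such as PTBP1 and PTBP2, were compared in each library by a log2 ratio of scaled FPKM + 1. The partner on top of the ratio is called the second and the other the first. The second is not always a neuronal or late partner: CCND2, SMAD9, MBNL2, PDK2 and DNMT3A are second partners that were called lower in CP. Of 24 pairs with both partners tested, 8 had the first partner lower and the second higher in CP, 1 had both higher, 2 both lower and 13 had at least 1 partner not called. The ratio did not overlap between CP and VZ for 21 pairs and was higher in CP for 17 of these. For DYNC1I1 over DYNC1I2, dynein chains of which the latter was not called (0.10), the mean ratio went from -3.33 in VZ to 1.28 in CP, so the lesser chain became the more abundant. The same crossing was seen for SLC12A5 over SLC12A2 (-2.19 to 0.81), SCN2A over SCN3A (-1.61 to 0.31), SLC2A3 over SLC2A1, glucose transporters (-1.80 to 0.38), and SS18L1 over SS18, BAF subunits (-0.79 to 0.89). PTBP2 over PTBP1 went from 0.66 to 3.04 and CDK5 over CDK2, a kinase of DNA replication that fell by 3.12 ± 0.17, from 0.89 to 4.66, for the most part through the fall of PTBP1 and CDK2. CHD5 over CHD4 stayed negative in all 6 libraries (-3.46 to -0.28), and HK1 over HK2, hexokinases, went from 2.56 to 5.23. KIF5A over KIF5B, kinesin heavy chains, was positive in all 6 (2.26 to 4.20). KIF5B was only at 0.281 to 1.01 in VZ and 0.802 to 1.40 in CP, where the added 1 has much weight in the ratio. It overlaps L1RE1li92 (mean of 16.6 over the 12 libraries), and how reads were divided there was not tested. Ratios that were lower in CP with no overlap were PDK2 over PDK3, pyruvate dehydrogenase kinases (1.56 to 1.07), CCND2 over CCND1 (2.13 to 0.35), MBNL2 over MBNL1, splicing factors (1.00 to 0.27), and SMAD9 over SMAD1, mediators of BMP signals (1.39 to -0.69). The rise of SLC2A3 was not called without VZ 1 (adjusted p = 0.0856), VZ 2 (0.0650) or CP 3 (0.0890), that of SS18L1 without VZ 2 (0.0781), CP 1 (0.0706) or CP 2 (0.0529), and that of SMARCD3, the partner of SMARCD1 (-0.04 to 2.76), without VZ 1 (0.121) or CP 2 (0.131).

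**Figure D4:**
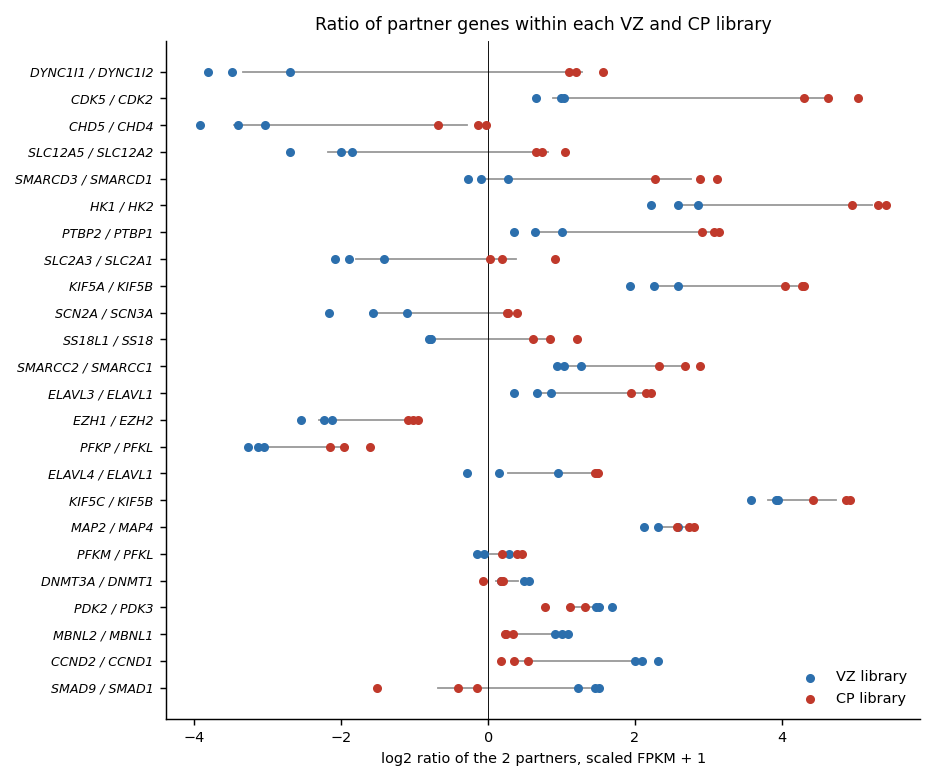
Log2 ratio of scaled FPKM + 1 of the second over the first partner for 24 pairs, in each VZ and each CP library (points), with a grey line that joins the means; a value of 0 means equal levels. The ratio of DYNC1I1 over DYNC1I2 moves furthest, from -3.33 to 1.28, and that of CCND2 over CCND1 moves the other way.

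Fuel and biosynthesis genes did not follow a single direction. Of 29 tested genes of glycolysis, serine synthesis and fuel use 7 were higher in CP, 13 lower and 9 not called (median -0.30), with 4 higher without VZ 1 and VZ 2. PHGDH and PSAT1, enzymes of serine synthesis, fell by 3.86 ± 0.22 and 3.82 ± 0.21, PSAT1 from 158, 169 and 222 to 12.2, 13.7 and 9.92 (limma adjusted p = 1.8e-07), and GLDC, which breaks down glycine, by 2.42 ± 0.18. HK2 fell by 1.79 ± 0.24 and HK1 rose by 0.88 ± 0.18, from 29.8, 27.1 and 30.7 to 48.7, 53.6 and 61.9. ALDOA, a glycolytic aldolase, was not called (-0.64, adjusted p = 0.072), but was with the replicate number as a block (0.0163). The entries of GAPDH, LDHB, ENO1 and TPI1 are listed at 0 in the VZ and CP libraries, so glycolysis is only partly covered. Of 23 tested genes of sterol and fatty acid synthesis 9 were higher, 6 lower and 8 not called (median 0.35). HMGCS1, an early enzyme of sterol synthesis, rose by 1.24 ± 0.15, from 140, 142 and 117 to 329, 378 and 251. SREBF1 and SCD, the regulator and the desaturase of fatty acid synthesis, fell by 1.86 ± 0.22 and 1.11 ± 0.19, and SREBF2, the regulator of sterol genes, was not called (-0.05, adjusted p = 0.78).

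Genes known from cortical folding and its malformations were higher in CP for 8 of 25 tested members, lower for 14 and not called for 3, and 4 were higher without VZ 1 and VZ 2. GLI3 and FAT4 are given with the morphogens and the junctions. PLEKHA7, an adherens junction protein, was at 5.18, 5.92 and 7.98 in VZ and at 0.223, 0.153 and 0.167 in CP (-2.62 ± 0.18, limma adjusted p = 5.4e-07). FLNA, an actin cross-linker whose loss leaves neurons at the ventricle, was at 19.1, 29.1 and 34.6 in VZ and at 5.46, 3.71 and 4.29 in CP (-2.36 ± 0.20). CCNB1IP1, which the series title names (TSDBGID.22407, chromosome 5, 107782925 to 107812804), lay below the filter, at 0.0627, 0.117 and 0.0278 scaled FPKM in VZ and 0.0184, 0.0984 and 0 in CP. The difference of means was -0.0304 with overlapping libraries (exact permutation test, two-sided, p = 0.5 over 20 assignments, of which the smallest possible is 0.1), and the highest upper bound deposited for any of these values was 0.270 FPKM. A difference between CP and VZ was not detectable at this level.

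Markers of cells other than radial glia and projection neurons were mostly lower in CP. Of 23 tested interneuron genes 12 were lower and 1 higher (2 with the replicate number as a block or without CP 3), and of 9 tested genes of subpallial progenitors, from which interneurons arise, 8 were lower. Without VZ 1 and VZ 2 these counts were 7, 1 and 5. DLX2, a transcription factor of the interneuron lineage, was at 59.7, 76.5 and 50.0 in VZ and at 6.78, 6.16 and 3.12 in CP (-3.34 ± 0.44, limma adjusted p = 6.9e-05), with ISVZ at a mean of 59.9. SP9, DLX5 and SP8, further factors of the lineage, fell by 3.74 ± 0.50, 3.69 ± 0.58 and 3.09 ± 0.37. GSX2, a factor of the lateral ganglionic eminence, fell by 3.54 ± 0.31. SIX3 fell by 3.44 ± 0.96, with a call that was lost without VZ 1 and VZ 2 (adjusted p = 0.135). ISL1 was at 0 in all CP libraries but was not called (-1.59, adjusted p = 0.11). It was called with the replicate number as a block (0.0389), with the 6 CP and VZ libraries alone (0.00119) and with a pseudocount of 0.1 (0.0113). NPY, an interneuron peptide, was not called (0.18), with CP 1 at 78.4 and CP 3 at 17.3. CALB1, a calcium buffer that interneurons share with upper-layer neurons, rose from 1.14, 1.59 and 1.67 to 13.5, 11.6 and 27.2 (2.82 ± 0.37). Summed interneuron markers were 581, 656 and 472 in VZ and 269, 245 and 112 in CP.

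All 11 tested astrocyte genes, most of which radial glia also use, were lower in CP, and so were 12 of 13 microglial genes. S100B, MLC1 and APOE had the largest falls among them. MLC1, a membrane protein of glia, fell by 4.93 ± 0.18, and APOE, the lipid carrier, by 5.24 ± 0.68, from 186, 428 and 168 to 4.31, 16.1 and 1.79, with VZ 2 the highest library as for TTR. S100B, a calcium-binding protein, was at 98.0, 142 and 158 in VZ and below 0.001, 0.157 and below 0.001 in CP. The microglial genes C1QB, CSF1R and C1QA fell by 2.55 ± 0.20, 1.93 ± 0.28 and 1.75 ± 0.23, and summed microglial markers were 98.1 to 117 in VZ and 15.6 to 19.7 in CP. CD68 was not called (0.07). Of 12 endothelial and mural genes 6 were lower and 6, KDR among them (-0.37), not called, and PDGFRB, a pericyte receptor, and SLCO1C1, a thyroid hormone transporter that radial glia also carry, fell by 2.30 ± 0.18 and 5.36 ± 0.28. OLIG2, a factor of oligodendrocyte precursors and ventral progenitors, fell by 2.75 ± 0.28. OLIG1 was not called (-0.33) and was highest in OSVZ (mean 28.1). SOX10 (-0.63, adjusted p = 0.035), whose libraries overlapped, was not called with the replicate number as a block (0.0509) or with VZ 2 (0.105), VZ 3 (0.134), CP 2 (0.0844) or CP 3 (0.12) left out. Of the 2 tested erythroid genes, ALAS2 and AHSP, both were lower, by 1.15 ± 0.23 and 1.18 ± 0.22. Their part in the differences of other genes was not tested.

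**Figure D5:**
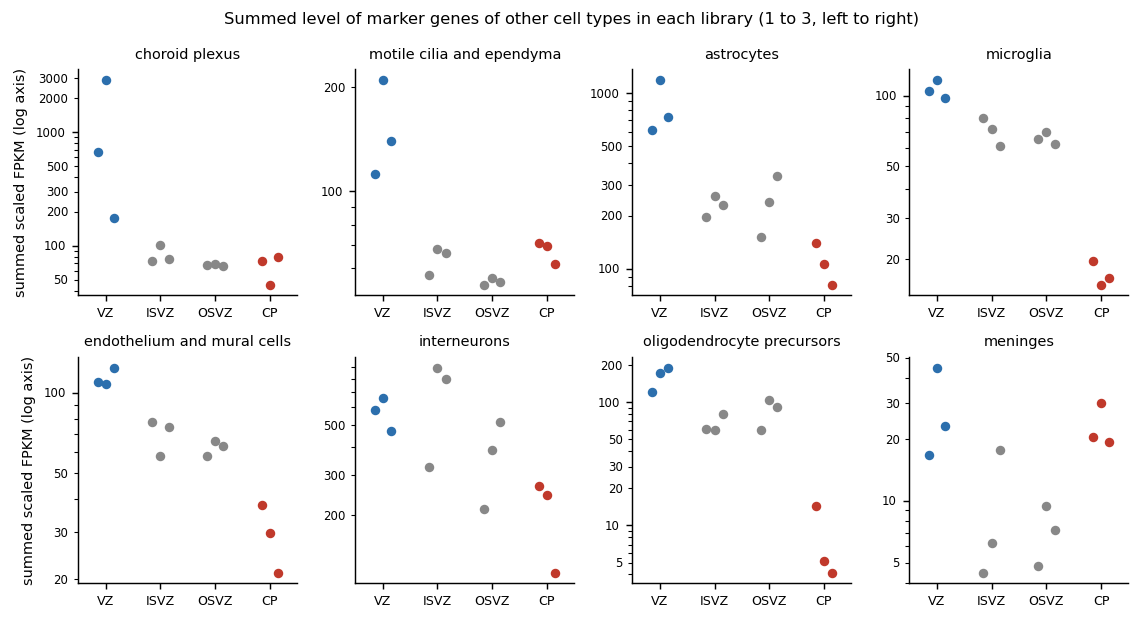
Summed scaled FPKM (log axis) of the marker genes of 8 other cell types in each of the 12 libraries, by layer. Choroid plexus markers reach 2917 in VZ 2 and 665 in VZ 1 against 45.4 to 79.8 in CP, and microglial, astrocyte and oligodendrocyte precursor markers are lowest in the 3 CP libraries.

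Of 7 tested choroid plexus genes 6 were lower in CP, and 2 were without VZ 1 and VZ 2. TTR (TSDBGID.7781, chromosome 13, 44906375 to 44915797) had the lowest log2 difference of all named genes, -7.51 ± 1.56 (limma adjusted p = 0.0018, and 0.0970 without VZ 1 and VZ 2). OTX2, a transcription factor of this tissue, was at 4.09, 27.0 and 6.76 in VZ and listed at 0 in all CP libraries. FOLR1, a folate receptor, was at 8.93, 69.7 and 2.05 in VZ and at 0.0275 to 0.129 in CP. Genes of motile cilia were lower for 11 of 14 tested members and higher for 2. The lower count fell to 5, 4 and 4 with VZ 1, VZ 2 or VZ 3 left out, and the higher count to 1 without VZ 3 or CP 3. RSPH1, SPAG6 and TEKT1, parts of the axoneme, were at 15.5, 15.9 and 11.4 in VZ 2 and at 1.84, 2.38 and 2.00 in VZ 1. Meningeal genes were 1 higher, 1 lower and 4 not called of 6: LUM, a collagen-binding proteoglycan, rose from 1.27, 4.51 and 0.905 to 12.9, 17.0 and 13.8 (2.43 ± 0.35, limma adjusted p = 0.00013) while the ISVZ and OSVZ libraries were at 0.0730 to 0.740. OGN, a related proteoglycan, fell by 1.76 ± 0.16. Summed meningeal markers overlapped between the layers, at 16.7 to 44.8 in VZ and 19.3 to 30.0 in CP. PTGDS, a prostaglandin synthase, was called with the replicate number as a block (0.0362), when 3 of the 6 were lower, against 2 without VZ 1 or CP 2. Of 13 immediate early and stress genes 5 were lower and 1 higher: BTG2 and HSPB1 fell by 3.34 ± 0.16 and 2.81 ± 0.29, and NR4A3, an activity-induced receptor, rose by 2.25 ± 0.36.

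Some of the 15 highest differences lie where genes overlap. ENO2, neuronal enolase (TSDBGID.1895, chromosome 7, 33888490 to 33897930), was below 0.001 in VZ 1 and VZ 2, at 0.0255 in VZ 3 and at 26.9, 30.3 and 34.2 in CP. GPX1, a glutathione peroxidase (TSDBGID.16899, chromosome 24, 23915721 to 23916377), was below 0.001 in all VZ libraries and at 19.9, 26.3 and 38.6 in CP. Both overlap another gene in the deposited annotation, ATN1 (mean of 27.1 over the 12 libraries) and RHOA (104), and so do MRPL24 (HDGF, 49.1), C1QL3 (PTER, 0.341) and, at the lower end, S100B (DIP2A, 3.26). Among genes at least 2-fold apart, 55 have a value below 0.001 in a VZ or CP library and an overlapping gene, and how the authors' program divided reads there was not tested, so no fold is given for these 5 genes. Other genes of the 15 had no such value: PDE1A, a calcium-dependent phosphodiesterase, rose by 4.15 ± 0.20 (limma adjusted p = 9.1e-08), CALN1, a calmodulin relative, by 4.20 ± 0.26, CLMP, an adhesion protein, by 4.06 ± 0.28, ARPP21, a phosphoprotein of neurons, by 4.02 ± 0.25, and U730, an entry of unstated function that overlaps SYT16, by 4.10 ± 0.35. PLPP3, a lipid phosphatase and the remaining gene of the 15 lowest, fell by 4.95 ± 0.16, from 66.1, 70.6 and 74.5 to 1.40, 1.43 and 1.12.

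The layers between the 2 ends show where along the wall the differences lie. Of the 1434 genes at least 2-fold higher in CP, 1060 (73.9%) had layer means in the order VZ, ISVZ, OSVZ, CP, and of the 1949 lower genes 1483 (76.1%) had the reverse order. The largest of the 3 steps was OSVZ to CP for 842 higher genes (58.7%) and 1160 lower genes (59.5%). The second place differed: it was ISVZ to OSVZ for 446 higher genes (31.1%) and VZ to ISVZ for 665 lower genes (34.1%), and the remaining step was largest for 146 (10.2%) and 124 (6.36%). Median steps from VZ to CP were 0.26, 0.56 and 0.76 for the higher genes and -0.52, -0.30 and -0.79 for the lower genes. GJA1, CRB1 and GAP43 are examples. GJA1 had means of 14.6 and 8.13 in ISVZ and OSVZ after 70.3 to 98.7 in VZ, CRB1 had 17.3 and 6.21 after 20.1 to 25.3, and GAP43 was at 31.6 to 32.4 in ISVZ and 80 to 223 in OSVZ before 278 to 341 in CP. OSVZ 3 was the highest of the OSVZ libraries for GAP43, with the other two at 80 and 80.5. These steps use the libraries that chose the genes and are given as a description, with no test.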

How the data were processed

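RNA of laser-cut layers was measured by poly(A) sequencing in 12 libraries, 3 per layer; the comparison uses 3 CP and 3 VZ libraries, grouped by the layer in the title. The title also carries the replicate number, and the labels' stage is used, which differs from the day in the names of the deposited tables. The FPKM values were deposited by the authors, 1 table per library with lower and upper bounds, and come from HISAT2 and Cufflinks, per the submitters' processing notes; program versions, genome build, annotation and strand setting: not given in the sources used here. Coordinates are those of the deposited tables.

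Of 81418 gene IDs, 360 have several entries, which were summed. Values were scaled by median ratio over 10200 genes (factors 0.947 to 1.063), genes at 1 FPKM or more in at least 3 of 12 libraries were kept, and log2(scaled FPKM + 1) was fitted with limma 3.58.1 (R 4.3.3, with an intensity trend) over all 4 layers, with 8 residual degrees of freedom and Benjamini-Hochberg adjustment over 14101 genes at 0.05. Log2 differences are on this scale, CP minus VZ, and understate the change of low genes. Plots and counts used Python 3.11.15. The fit was tested on simulated data. No 2 libraries held identical values.

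The 41 gene lists hold 1175 genes. By symbol 1111 matched an entry, and 944 were tested. Named genes are the 15 highest and 15 lowest differences among called genes with a symbol whose libraries do not overlap; of each list up to 4 called members with the largest difference and the most abundant other member; members that go against a list; both partners of paired isoforms; and 6 check genes. Some genes that this rule names are not reported here. Members and lists were chosen with earlier results of these data known. None of the 22 mitochondrial transcripts was found by symbol, and the erythroid list rests on 2 genes.

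Same-numbered CP and VZ libraries deviated together from their layer means: r across genes was 0.300, 0.194 and 0.337. Between different numbers r was -0.23 to -0.057. Over all layers the ranges overlapped, at 0.063 to 0.425 for the same number and -0.363 to 0.175 for different numbers. Deviations from a layer mean cancel out within the layer, so the r values of same and different numbers are not independent. The numbers, which come from the titles, were taken to pair the samples only in the alternatives with the replicate number as a block. The reported fit uses layer means without that block, so its p-values are not paired. The alternatives were the replicate number as a block, other scalings, filters and pseudocounts, only the 6 libraries (also with the block), and leaving out libraries. Sequences and a genome were not used here.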

Additional observations from a re-analysis of the deposited data

How the results depend on the processing

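Of 231 called named genes, 0 changed direction under an alternative that tested them, and 191 kept the call wherever they were tested. Another 24 lost it under an alternative other than leaving out VZ 1 and VZ 2, and the rest lost it only in that setting. With a filter of 5 FPKM, 42 of the 274 tested named genes fell below the filter, so no call was compared there. Of 1394 list counts under alternatives, 1295 were within 1.5 times of the reported count. Called genes numbered 7885 with the replicate block, 6825 with only the 6 libraries, 7434 with a pseudocount of 0.1, 7797 with no filter, 7382 without the trend and 6454 to 6775 with 1 library left out. The replicate block changed no call of a named gene other than those given beside the genes, with MAP4 (0.025) and DNMT1 (0.0373) gained. The block within the 6 CP and VZ libraries, an alternative chosen after seeing the data, also lost the call of GPC2 (0.0682) and gained those of KCNIP4 and BCL11B. Without VZ 1 and VZ 2, an alternative chosen after seeing the data, 4924 genes were called, 2210 of them higher, and all 4924 did not overlap. A filter of 5 FPKM left fewer genes to test: 2508 were lower, 2190 were at least 2-fold and 1163 of those lower. Calls split into 2928 higher and 4325 lower with FPKM as deposited, 3068 and 4211 with equal totals and 3909 and 3519 after quantile normalisation, against 3365 and 4048.

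Reversals were limited to named genes that were not called; the cause was not tested. After quantile normalisation PDK3 was 0.202, MAD2L1 0.138 and SMAD1 0.021. Without VZ 1 and VZ 2, CD68 was -0.219, EPHA5 0.249 and ELAVL2 0.101. With 1 library left out, the log2 difference ranged from -0.415 to 0.642 for NPY, -0.152 to 0.412 for CDKN1C, -0.090 to 0.304 for ELAVL4, -0.149 to 0.304 for CD68 and -0.020 to 0.144 for HS6ST2. It ranged from -0.089 to 0.064 for PDK3, -0.169 to 0.072 for MAD2L1, -0.176 to 0.168 for EPHA5 and -0.199 to 0.074 for SMARCC2. It ranged from -0.227 to 0.020 for CSPG5, -0.199 to 0.026 for RFC2, -0.289 to 0.014 for PFKL, -0.377 to 0.031 for ELAVL2 and -0.559 to 0.041 for ETV1. Read depth is unknown, so no interval for a single low value beyond the deposited bounds could be given.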

Other observations

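Some neuronal genes had a higher mean in OSVZ than at either end of the wall, with no test of that difference. CNR1, the cannabinoid receptor of axons, had a mean of 106.4 scaled FPKM in OSVZ, and HPCA one of 68.7. The guidance receptors UNC5D, PLXNA4 and NRP1 were at 27.7, 23.4 and 16.8 there. These genes were picked after their values were seen.

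Gene families taken by the start of their symbol, also after the data were seen, differed in their split. Entries named as copies were left out. Over all tested genes 23.9% were higher in CP and 28.7% lower. Of 13 tested subunits of the vacuolar proton pump, which acidifies vesicles, 11 were higher in CP and 2 lower, with a median log2 difference of 0.79; ATP6V1G2 was highest at 2.17 and ATP6V0E1 lowest at -1.35. Of 21 nucleoporins, parts of the nuclear pore, 2 were higher and 16 lower (median -0.54), and of 33 kinesins, motors of both spindles and axons, 10 were higher and 18 lower. RAB GTPases of vesicle traffic were 22 higher and 7 lower of 42, and genes of cyclic nucleotide synthesis and breakdown 11 higher and 2 lower of 20. Cytosolic ribosomal proteins were 0 higher and 6 lower of 25 by limma (24% called), and complex I subunits 3 higher and 2 lower of 29 (17.2%). Both shares were under the 52.6% called over all tested genes.

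Annotated genes called higher spanned a median of 57316 bases of genome and those called lower 44137, against 36504 for genes not called; at 4-fold or more the medians were 88950 and 36849. Antisense loci were called for 37.9% of 1160 tested and intergenic loci for 40.7% of 526, against 54.5% of 12394 annotated genes, and the strand on which the antisense loci were counted is not given in the sources used here.

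A level of 5 or more scaled FPKM in all libraries of 1 layer and under 0.5 in all libraries of the other was reached by 9 genes in CP and 105 in VZ. The CP genes include ENO2, GPX1, C1QL3, RAB3B, KCNV1, FRZB, AKAP2-AS-2 and CADM2-AS-2. Of these, ENO2, GPX1, C1QL3 and CADM2-AS-2 had values below 0.001 in VZ libraries. Such values in CP libraries were listed for VZ genes that include KIF22, SKA3, FBXO5, EFEMP2, S100B, CDC25B, DCXR and CENPKli1. They were also listed for CDC42-AS-1, GLI3-AS-2 and LINC-SOX1-3. The overlap of loci named AS or LINC is not given. Each of the other genes named with such values overlaps another gene. How the authors' program divided reads there was not tested, so the near absence of these genes from a layer is uncertain.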
